A study of Mus musculus with 17 samples.

Results

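The metallothioneins Mt1 and Mt2, their transcriptional activator Mtf1, the zinc importers Slc39a14 and Slc39a8 and the zinc exporter Slc30a1 were followed in the diaphragm. They are 6 of the 47643 gene symbols listed, were chosen by name, and all 6 were among the 13305 genes with enough signal to be tested. Diaphragm RNA was sequenced from 17 male C57BL/6J mice aged 4 months, each mouse giving 1 library. Control mice (n = 5) carried no tumor and received mock injections, and Control + rFibcd1 mice (n = 5) carried no tumor and received recombinant Fibcd1, a secreted fibrinogen-domain protein, in the peritoneal cavity. LLC mice (n = 3) carried tumors from Lewis lung carcinoma cells, a mouse line, implanted under the skin and received mock injections, and LLC + rFibcd1 mice (n = 4) carried these tumors and received the recombinant protein. The tumor was thus a transplant grown under the skin, and no mouse carried a modified allele according to the labels.

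Metallothioneins are small cysteine-rich proteins that bind zinc and copper and buffer the free zinc of the cytosol. When zinc rises, the zinc finger protein MTF-1 binds metal response elements in the promoters of Mt1, Mt2 and Slc30a1, so that more zinc is bound and more is exported. Metallothionein genes also respond to glucocorticoids, to interleukin-6 acting through STAT3 and to oxidative stress. The ZIP proteins (Slc39 genes) bring zinc into the cytosol and the ZnT proteins (Slc30 genes) remove it, either across the plasma membrane, as ZnT1 from Slc30a1 does, or into vesicles and organelles. ZIP14 and ZIP8, from Slc39a14 and Slc39a8, also carry iron and manganese. In skeletal muscle, metallothionein transcripts are known to rise in several states of wasting.

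Mt1 and Mt2 are neighbours. On GRCm38, Mt2 spans chr8:94172664-94173568 and Mt1 chr8:94179082-94180327, both on the plus strand, with 5513 bp between them. Mtf1 spans chr4:124802104-124849800 (plus strand), Slc39a14 chr14:70303469-70351425 (minus), Slc39a8 chr3:135825279-135888572 (plus) and Slc30a1 chr1:191906767-191913247 (plus), and all 6 genes code for protein. Values are totals over the exons of a gene. Mtf1 overlaps the protein-coding gene 1110065P20Rik on the opposite strand, which averaged 16 TPM, and the sources used here do not state whether counting used the strand, so reads of these 2 genes may not be separated. Other overlapping genes listed averaged at most 0.0786 TPM.

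The RefSeq promoter windows (GRCm38.p6) held 5 of the 6 members, all except Slc39a14. The 250 bases before the annotated start are shown for the metallothionein pair, which varied together between mice, and for Slc30a1, an MTF-1 target that did not vary with them. Sequences run 5′ to 3′ on the plus strand, and capitals mark matches to the core of the metal response element on either strand. For the genes shown, the RefSeq start lies some bases from the start of the gene span given above. The windows are chr8:94172368-94172617 for Mt2, chr8:94178839-94179088 for Mt1 and chr1:191906531-191906780 for Slc30a1.
Mt2: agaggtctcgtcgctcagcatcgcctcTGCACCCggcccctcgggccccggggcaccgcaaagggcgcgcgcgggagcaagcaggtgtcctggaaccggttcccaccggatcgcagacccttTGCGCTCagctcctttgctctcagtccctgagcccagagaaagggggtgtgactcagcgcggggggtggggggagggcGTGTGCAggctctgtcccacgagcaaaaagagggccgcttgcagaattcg
Mt1: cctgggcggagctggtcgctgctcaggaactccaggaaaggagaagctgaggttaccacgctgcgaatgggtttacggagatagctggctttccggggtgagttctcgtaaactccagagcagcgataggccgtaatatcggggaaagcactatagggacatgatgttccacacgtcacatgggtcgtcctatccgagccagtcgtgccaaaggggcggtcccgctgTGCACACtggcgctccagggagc
Slc30a1: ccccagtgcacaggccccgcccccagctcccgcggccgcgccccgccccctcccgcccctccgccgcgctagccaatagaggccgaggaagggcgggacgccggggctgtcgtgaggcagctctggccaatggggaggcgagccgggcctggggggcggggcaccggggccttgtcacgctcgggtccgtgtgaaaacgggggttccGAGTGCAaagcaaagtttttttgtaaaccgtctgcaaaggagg

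The core was searched as TGCACNC or TGCGCNC on both strands, over the 300 bases that also hold the 50 bases after the start. Mt2 had 4 matches, of which 3 lie in the printed bases and 1 after the start. Mt1 had 3, of which 1 is printed, at -23 to -17, and 2 lie after the annotated start, at 3 to 9 and at 21 to 27. Slc30a1 had 2, of which 1 is printed. Of 32851 windows in the RefSeq table, 25.7% held at least 1 match, 7.11% at least 2, 1.97% at least 3 and 0.517% at least 4. The Mtf1 window had 0 matches, and the 2 windows of Slc39a8 had 0 and 1. A STAT site (TTCNNNGAA) was in none of the member windows and in 8.3% of all windows. The antioxidant response element core (TGACNNNGC) was found once each for Mt2, Slc30a1 and 1 window of Slc39a8, against 12.4% of all windows, and an E-box (CACGTG) was found in 1 window of Slc39a8, against 7.15%. No match of one motif overlapped a match of another in these windows. These are matches of letters and not measured binding. Bases outside the 300 of a window were not searched, so a motif absent from a window may lie nearby.

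The estimated depth of a library was 50.5 to 54.4 in units of 1000000 reads, so it was alike between groups. Mitochondrially encoded transcripts took 47.1% ± 1.09 (SD, n = 5) of the TPM sum in Control, 47.8% ± 1.93 (n = 5) in Control + rFibcd1, 42.9% ± 1.53 (n = 3) in LLC and 45.2% ± 1.48 (n = 4) in LLC + rFibcd1. TPM (transcripts per 1000000) are shares of a fixed sum. The median log2 difference of all tested genes between LLC and Control was 0.16 as deposited and 0.075 after rescaling without mitochondrial genes, and median-ratio scaling, which itself sets this median near 0, gave 0.0055. The tissue carried muscle markers throughout, with the summed TPM of 8 myofiber genes between 42600 and 56300. That sum was 42600 to 44900 in LLC and 50300 to 54700 in Control, without overlap, which also held for 40.2% of tested genes. Of the 8 genes, 4 were called as lower between these groups (Ckm, Mylpf, Tnnt3 and Myh1), against 6.02% of all tested genes, and the part of this in the member values was not tested. Alb, the liver gene for albumin, was over 100 TPM in 3 libraries, which were Control replicate 4, Control + rFibcd1 replicate 2 and LLC + rFibcd1 replicate 4. The summed TPM of 8 hepatocyte markers was 922 in LLC replicate 1 and 584 in LLC replicate 3, above the 481 of LLC + rFibcd1 replicate 4. LLC replicates 1 and 3 stayed in the fits without the 3 libraries. In bulk tissue, fewer cells of a type and less RNA per cell cannot be told apart.

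Mt1 was by far the most abundant member. It averaged 159.0 TPM over the 17 mice, above 96.4% of tested genes, and Mt2 averaged 40.1 TPM, above 86.5%. Slc30a1 averaged 6.41 TPM, Mtf1 4.87 TPM, Slc39a14 3.63 TPM and Slc39a8 2.62 TPM. Within the metallothionein family, Mt3, which is best known from brain, averaged 2.28 TPM, and Mt4, known from squamous epithelium, was listed at 0 in all 17 mice. TPM are scaled by gene length, but the lengths behind the deposited values are not known here, which limits comparison between genes. For Mt1 the exon length used to estimate reads was 1246 bp, which takes in its whole span. By estimate, Mt1 rested on 3140 to 7150 reads per mouse and Slc39a8, the lowest member, on 189 to 848.

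**Figure D1:**
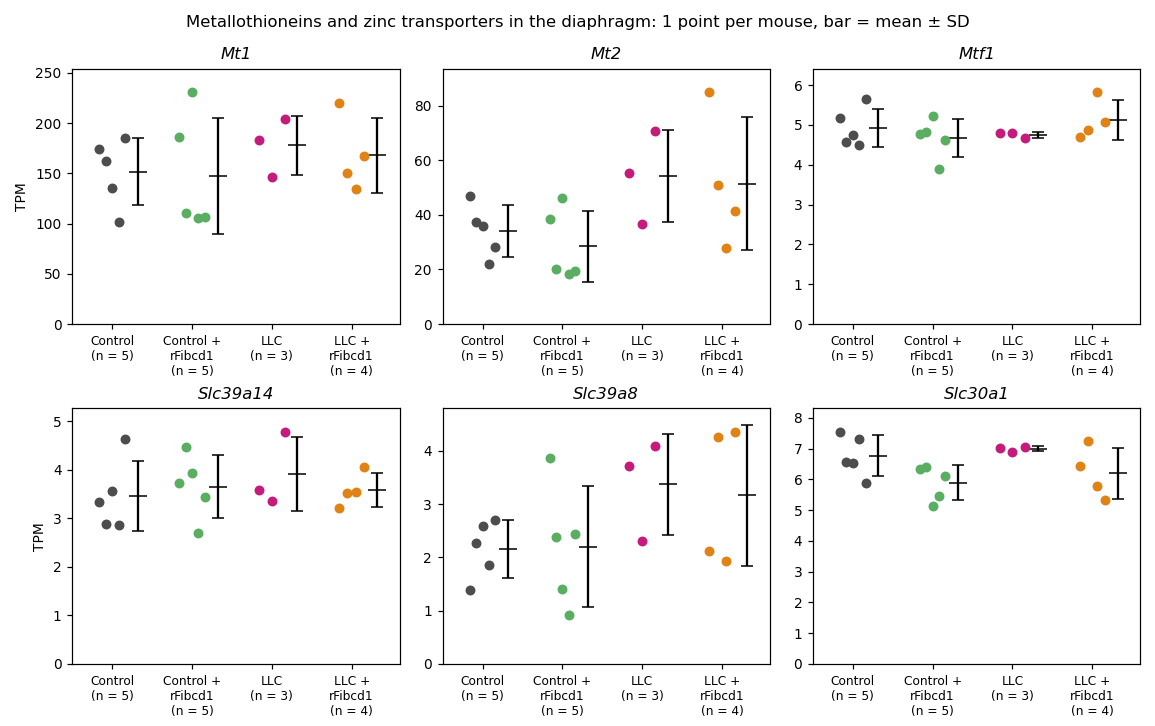
TPM of each member (vertical axis, starting at 0) by group, with 1 point per mouse and bars for the mean ± SD. The groups overlap for every member. Mt2 is highest in 1 LLC + rFibcd1 mouse at 85.1 TPM and lowest in Control + rFibcd1 at 18.3 TPM.

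Mt2 was the member that differed most with the tumor. In Control mice it measured 46.9, 37.2, 36.1, 22.0 and 28.3 TPM, and in Control + rFibcd1 mice 38.5, 20.2, 46.1, 18.3 and 19.3 TPM. LLC mice had 55.4, 36.8 and 70.6 TPM, and LLC + rFibcd1 mice 85.1, 50.9, 27.99 and 41.5 TPM. Of the tumor-bearing mice, 4 exceeded every tumor-free mouse, and 3 lay within the tumor-free range. Tumor-bearing mice averaged 52.6 ± 19.9 TPM (SD, n = 7) and tumor-free mice 31.3 ± 11.1 TPM (n = 10), a ratio of 1.68. On the log2(TPM + 1) scale, on which all tests were run and which understates the change of low genes, the difference was 0.73 ± 0.25 (SE), with an adjusted p of 0.029 by limma. Mt2 was the 1 member of 6 called in this comparison, as higher, where 44.8% of all tested genes were called, 38.8% as higher and 5.98% as lower, so a share of this size is no result about the members. The call was lost after median-ratio scaling (difference 0.58, adjusted p = 0.078), quantile normalization (0.595, 0.066) and rescaling without mitochondrial genes (0.65, 0.052). It was also lost without the 3 libraries above 100 TPM of Alb (0.65, adjusted p = 0.077, an alternative chosen after seeing the data), and without any 1 of 6 single mice. These were Control + rFibcd1 replicates 2, 4 and 5, LLC replicates 1 and 3, and LLC + rFibcd1 replicate 1, with adjusted p between 0.050 and 0.073. The difference stayed positive in all of these fits.

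Between LLC and Control alone, Mt2 averaged 54.3 ± 16.9 TPM (SD, n = 3) against 34.1 ± 9.44 TPM (n = 5). The log2 difference of 0.65 ± 0.37 (SE) did not pass, with a limma adjusted p of 0.17 and a 95% interval from -0.14 to 1.44. LLC + rFibcd1 mice averaged 51.4 ± 24.4 TPM (n = 4), and their log2 difference from LLC was -0.14, with an interval from -0.97 to 0.68. That interval holds changes in either direction that are larger than the difference between LLC and Control. In Control + rFibcd1 mice Mt2 averaged 28.5 ± 12.9 TPM (n = 5), a log2 difference of -0.31 from Control, with an interval from -0.996 to 0.37. In descending order the groups were LLC, LLC + rFibcd1, Control and Control + rFibcd1, and no neighbours in that order differed beyond their spread by limma.

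Mt1 showed the same order of group means with smaller differences. Control mice had 174, 162, 135, 102 and 185 TPM, and Control + rFibcd1 mice 186, 110, 231, 106 and 106 TPM. LLC mice had 183, 146 and 205 TPM and LLC + rFibcd1 mice 220, 150, 134 and 167 TPM. The highest value of all 17 mice, 231 TPM, was in a tumor-free mouse that received rFibcd1, and the group ranges overlap widely. Tumor-bearing mice averaged 172 ± 31.8 TPM (SD, n = 7) against 150 ± 44.6 TPM (n = 10), a log2 difference of 0.24 ± 0.18 (SE) with a limma adjusted p of 0.29. From Control to LLC the log2 difference was 0.25 with an adjusted p of 0.48.

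The 2 metallothioneins varied together from mouse to mouse. Pearson's r of their log2 values was 0.85 over 17 mice (permutation p = 6e-05, two-sided, adjusted p = 2e-04) and Spearman's rho was 0.81 (permutation p = 0.00014, adjusted p = 0.00035). After the group means were subtracted, r was 0.87 (permutation p = 4e-05, adjusted p = 2e-04). Within the 7 tumor-bearing mice r was 0.94 (exact permutation p = 0.00317, adjusted p = 0.00396) and rho 0.96 (exact p = 0.00278, adjusted p = 0.00396), and within the 10 tumor-free mice r was 0.87 (permutation p = 0.004, adjusted p = 0.00444) and rho 0.79 (permutation p = 0.00806, adjusted p = 0.00806). Without the 2 mice farthest from the median of Mt1, Control replicate 4 and Control + rFibcd1 replicate 4, r was 0.80 (permutation p = 0.00056, adjusted p = 0.00112). Adjustment was over the 10 coefficients of this family. Both values of a mouse come from 1 library, so depth and sample quality are shared between them.

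The ratio of Mt2 to Mt1 was 0.227 ± 0.0473 (SD, n = 5) in Control, 0.189 ± 0.0142 (n = 5) in Control + rFibcd1, 0.30 ± 0.0466 (n = 3) in LLC and 0.296 ± 0.0818 (n = 4) in LLC + rFibcd1. This ratio is not changed by a single scaling factor per library, as in median-ratio scaling or rescaling without mitochondrial genes. It ran from 0.153 to 0.27 in tumor-free mice and from 0.208 to 0.387 in tumor-bearing mice, so the ranges overlap, and it was examined after the values were seen and was not tested.

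**Figure D2:**
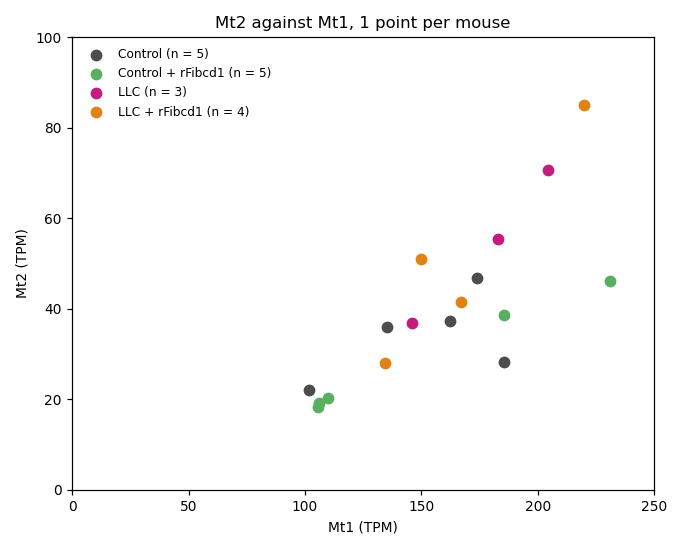
Mt2 against Mt1 in TPM (both axes start at 0), with 1 point per mouse coloured by group. Pearson's r of the log2 values was 0.85 over 17 mice, and tumor-bearing mice lie mostly above tumor-free mice of like Mt1.

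Mt1 and Mt2 were also variable genes. After group means were removed, the SD between mice on the log2 scale was 0.54 for Mt2, larger than in 97.0% of the 500 genes of nearest mean level, and 0.39 for Mt1, larger than in 95.2%. The SD was 0.41 for Slc39a8 (89.4%), 0.20 for Slc39a14 (59.1%), 0.12 for Slc30a1 (35.7%) and 0.11 for Mtf1 (22.2%). The same group size therefore gave 95% intervals of the difference between LLC and Control that were much wider for Mt2 than for Mtf1 (-0.22 to 0.14).

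Mtf1, which encodes the zinc sensor itself, stayed within a narrow range. It measured 5.17, 4.56, 4.74, 4.50 and 5.66 TPM in Control, 4.77, 4.83, 5.22, 3.90 and 4.63 TPM in Control + rFibcd1, 4.81, 4.79 and 4.67 TPM in LLC, and 4.70, 4.88, 5.83 and 5.08 TPM in LLC + rFibcd1. All LLC values lay inside the Control range. The log2 difference between LLC and Control was -0.04 ± 0.08 (SE, limma adjusted p = 0.74) with values as deposited. After quantile normalization it was -0.36 with an adjusted p of 0.024.

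Slc30a1, the plasma membrane zinc exporter, measured 7.55, 6.57, 6.52, 7.30 and 5.90 TPM in Control and 6.33, 6.40, 5.13, 5.47 and 6.12 TPM in Control + rFibcd1. LLC mice had 7.03, 6.90 and 7.04 TPM and LLC + rFibcd1 mice 6.43, 7.24, 5.79 and 5.31 TPM. The mean was lower with rFibcd1 in both backgrounds, by a log2 difference of -0.17 ± 0.08 (SE) without a tumor (limma adjusted p = 0.93) and -0.16 ± 0.10 with one (adjusted p = 0.29), and neither passed. The sign of the difference between LLC and Control depended on the scaling, with 0.04 as deposited (adjusted p = 0.72), -0.12 after median-ratio scaling (adjusted p = 0.25), -0.05 after rescaling without mitochondrial genes (adjusted p = 0.67) and -0.25 after quantile normalization (adjusted p = 0.026). The difference between tumor-bearing and tumor-free mice likewise went from 0.04 to -0.17 after quantile normalization, where it passed with an adjusted p of 0.024 and 25.0% of all tested genes were called as lower.

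Slc39a14, which encodes ZIP14, measured 3.33, 2.88, 3.57, 2.87 and 4.65 TPM in Control and 3.73, 4.47, 3.94, 2.71 and 3.44 TPM in Control + rFibcd1. It measured 3.58, 3.36 and 4.79 TPM in LLC and 3.21, 3.52, 3.55 and 4.06 TPM in LLC + rFibcd1. One mouse in each of Control and LLC was above 4.6 TPM, and the others of these groups were between 2.87 and 3.58 TPM. The log2 difference between LLC and Control was 0.14 ± 0.14 (SE, limma adjusted p = 0.43), close to the shift of 0.16 of the median gene, and it was -0.0044 after median-ratio scaling and -0.18 after quantile normalization.

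Slc39a8, which encodes ZIP8, measured 1.39, 2.27, 2.59, 1.85 and 2.71 TPM in Control and 3.87, 2.39, 1.40, 0.924 and 2.43 TPM in Control + rFibcd1. It measured 3.72, 2.30 and 4.09 TPM in LLC and 2.11, 4.26, 1.92 and 4.36 TPM in LLC + rFibcd1. Of the tumor-bearing mice, 4 were above 3.7 TPM, as was 1 tumor-free mouse. Tumor-bearing mice averaged 3.25 ± 1.09 TPM (SD, n = 7) and tumor-free mice 2.18 ± 0.839 TPM (n = 10), a ratio of 1.49. The log2 difference was 0.42 ± 0.19 (SE) with a limma adjusted p of 0.086, so it was not called, and it passed only without Control + rFibcd1 replicate 1 (0.49, adjusted p = 0.031). Between LLC and Control the difference was 0.46 ± 0.29 (SE, adjusted p = 0.21).

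Slc39a8 followed transcripts of the mesothelium, the cell layer that covers the diaphragm. The 3 tested genes most like it over the 17 mice were Upk1b, a uroplakin, with r = 0.92, Fbln1, an extracellular matrix protein, with r = 0.92, and Itga3, an integrin subunit, with r = 0.91. The summed TPM of 4 mesothelial markers, Msln, Upk3b, Wt1 and Lrrn4, ran from 49.8 to 129 in Control, 18.1 to 113 in Control + rFibcd1, 83.9 to 150 in LLC and 51.9 to 141 in LLC + rFibcd1. Slc39a8 and this sum had r = 0.88 over 17 mice on the log2 scale, against 0.78 for the fibroblast markers and -0.53 for the myofiber markers, as a description of libraries that share depth and dissection. The lowest Slc39a8 value, 0.924 TPM, and the lowest marker sum were in the same mouse, Control + rFibcd1 replicate 4. Wt1 was higher in tumor-bearing mice by a log2 difference of 0.57 (limma adjusted p = 0.038), and the other 3 markers were not called, in a comparison where 38.8% of all tested genes were higher. The part of these cells in the Slc39a8 values was not tested.

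**Figure D3:**
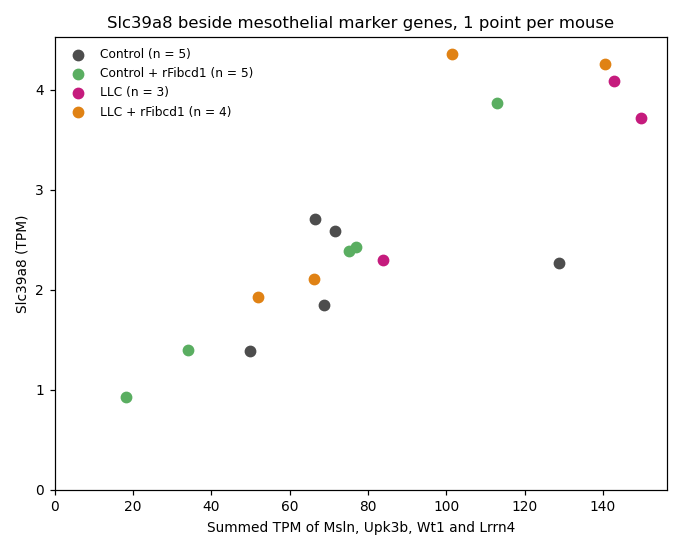
Slc39a8 in TPM against the summed TPM of the mesothelial markers Msln, Upk3b, Wt1 and Lrrn4, with both axes starting at 0 and 1 point per mouse coloured by group. The 5 mice above 3.7 TPM of Slc39a8 all have marker sums of 101 or more, and Control replicate 2 lies apart with a sum of 129 and 2.27 TPM.

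The Mt2 difference was the 1 member call in the 6 comparisons with values as deposited. Between LLC and Control 0 of 6 members passed, where 35.8% of tested genes did (29.7% as higher and 6.02% as lower), and after quantile normalization Mtf1 and Slc30a1 passed as lower, where 23.9% of all tested genes were lower. The count of all genes called there was 4759, but 24 without LLC replicate 3 and 2272 without LLC replicate 1. Between LLC + rFibcd1 and LLC 0 of 6 passed, against 0.113% of tested genes, and between LLC + rFibcd1 and Control 0 of 6, against 3.08%. Between Control + rFibcd1 and Control and in the interaction of tumor and rFibcd1, which asks whether the protein acted differently with a tumor, 0 of 6 members and 0% of tested genes passed by limma. The smallest adjusted p of a member was 0.93 in the former and 0.68, for Mtf1, in the latter. Dunn's rank test called 0 of the 13305 genes in each of the 4 pairwise comparisons, so its count of 0 members is no result about them.

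At an unadjusted limma p under 0.05, 2 members, Mt2 and Slc39a8, passed for the pooled tumor comparison, where 53.5% of tested genes did. Between Control + rFibcd1 and Control 1 member, Slc30a1, passed at this level, against 4.39% of tested genes. The count was 0 members between LLC and Control (48.3% of tested genes), between LLC + rFibcd1 and LLC (22.7%), between LLC + rFibcd1 and Control (19.9%) and in the interaction (8.58%). No member separated the groups without overlap in any comparison, while this held for 40.2% of tested genes between LLC and Control, 14.6% between LLC + rFibcd1 and LLC, 8.88% between LLC + rFibcd1 and Control, 0.812% between Control + rFibcd1 and Control, and 2.26% with the groups pooled by tumor. Comparisons that share the Control or LLC mice are not independent of each other.

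**Figure D4:**
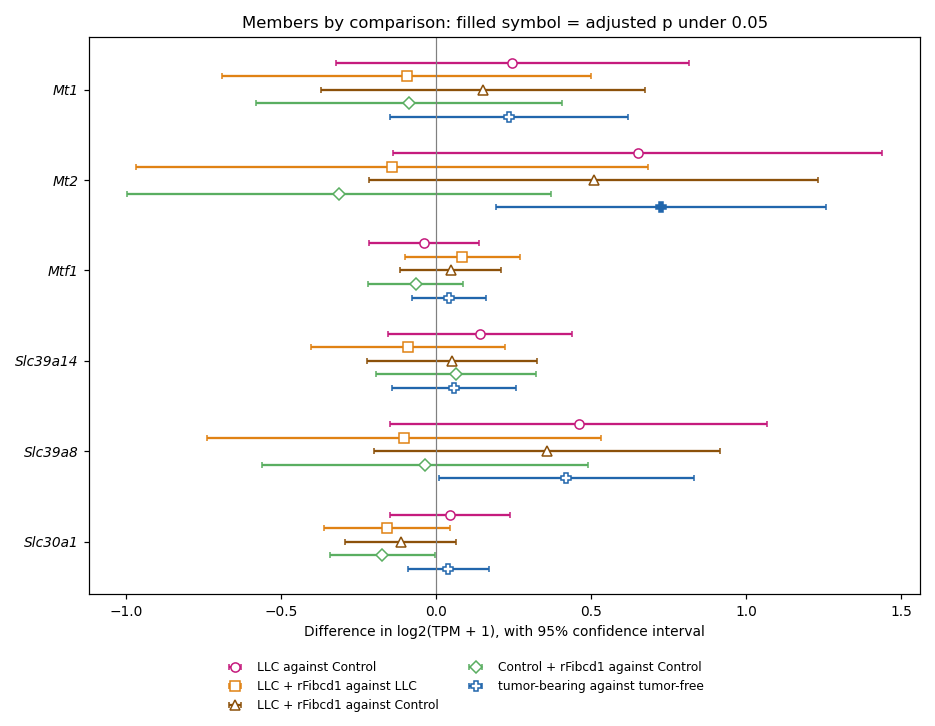
Difference in log2(TPM + 1) with its 95% confidence interval for each member (rows) in 5 comparisons (symbols), with filled symbols for an adjusted p under 0.05. The one filled symbol is Mt2 in the pooled tumor comparison, at 0.73, and the signs of Mtf1, Slc39a14 and Slc30a1 in that comparison turn negative under median-ratio scaling.

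Among the other zinc transporters, several importers were higher in LLC mice. Of 14 ZIP genes 12 were tested, and between LLC and Control 6 were called as higher, against 29.7% of all tested genes, and 0 as lower, with a median log2 difference of 0.31 against 0.16 over all tested genes. Slc39a6, a plasma membrane importer, went from 1.92 ± 0.21 TPM (SD, n = 5) to 3.46 ± 0.57 TPM (n = 3), a log2 difference of 0.60 (limma adjusted p = 0.011), and Slc39a11 from 2.07 ± 0.44 to 3.93 ± 1.08 TPM, a difference of 0.67 (adjusted p = 0.011). The most abundant ZIP genes were Slc39a7, an importer of the endoplasmic reticulum and Golgi, at 45.3 ± 3.17 TPM in Control and 56.4 ± 4.52 TPM in LLC (log2 difference 0.31, adjusted p = 0.011), and Slc39a1, at 43.8 ± 3.18 and 55.3 ± 4.86 TPM (0.33, adjusted p = 0.022). Slc39a3, next in abundance, had 12.8 ± 0.60 TPM in Control and 13.4 ± 0.94 TPM in LLC and was not called. Slc39a6, Slc39a7 and Slc39a11 passed as higher under each of the 3 other scalings, while Slc39a1 and the remaining calls of this comparison, Slc39a9 and Slc39a13, did not, and Slc39a13 turned to -0.07 after quantile normalization. Slc39a2, at -0.21 and not called as deposited, passed as lower after median-ratio scaling (-0.30, adjusted p = 0.041) and quantile normalization (-0.57, adjusted p = 0.0078). The count fell to 0 of 12 without LLC replicate 3 and to 3 of 12 without LLC replicate 1, with no change of direction in the median (0.24 and 0.29). It was also 3 of 12 without the 3 libraries above 100 TPM of Alb. With the groups pooled by tumor 8 of 12 ZIP genes were called as higher, against 38.8% of all tested genes, and 6 to 9 when each mouse was left out. That count was 6 without the libraries above 100 TPM of Alb, 3 after median-ratio scaling, 4 after rescaling without mitochondrial genes and 3, with 1 called as lower, after quantile normalization, where Slc39a3, Slc39a10 and Slc39a13 turned negative (-0.03, -0.01 and -0.03).

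Of 10 ZnT genes 7 were tested, and between LLC and Control 1 was called as higher and 1 as lower, against 29.7% and 6.02% of all tested genes. Slc30a9, at 18.3 ± 0.63 TPM in Control (SD, n = 5) and 15.8 ± 0.28 TPM in LLC (n = 3), was lower by a log2 difference of -0.20 (limma adjusted p = 0.013) and passed as lower under each scaling, but not without LLC replicate 3. Slc30a5, which supplies zinc to the secretory pathway, was higher, at 11.1 ± 1.14 against 14.3 ± 1.63 TPM (0.34, adjusted p = 0.032), and passed under no other scaling. When each mouse was left out, 0 to 3 ZnT genes were called as higher and 0 to 1 as lower, with 0 calls without LLC replicate 3. With the groups pooled by tumor, Slc30a7 was also called as higher (0.28, adjusted p = 0.044), again with values as deposited only, which made 2 higher and 1 lower against 38.8% and 5.98% of all tested genes. Fits that left out 1 mouse gave 0 to 3 higher and 1 lower in that comparison. Slc30a4, next in abundance after Slc30a9, Slc30a5 and the member Slc30a1, had 6.13 ± 0.54 TPM in Control and 6.61 ± 0.70 TPM in LLC and was not called.

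**Figure D5:**
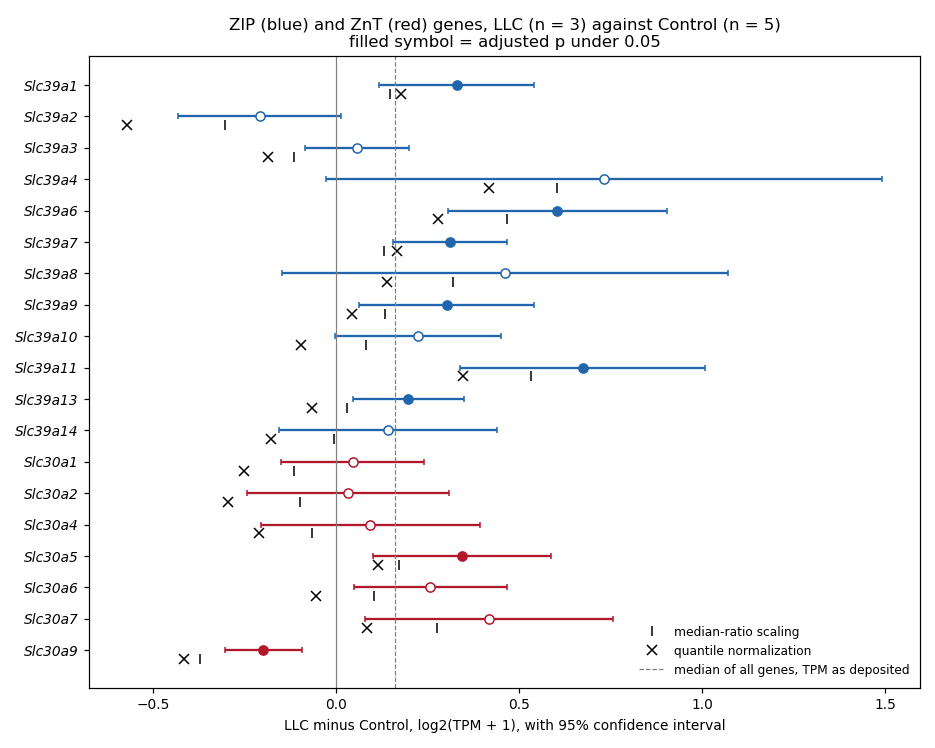
Log2 difference between LLC (n = 3) and Control (n = 5) with 95% confidence intervals for the tested ZIP genes (blue) and ZnT genes (red), with black marks for median-ratio scaling and quantile normalization and filled symbols for an adjusted p under 0.05. Slc39a6 (0.60) and Slc39a11 (0.67) lie farthest right among the called genes under the deposited scaling, and 4 of 12 ZIP genes (Slc39a3, Slc39a10, Slc39a13 and Slc39a14) and 4 of 7 ZnT genes change sign under quantile normalization.

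The pathways that act on metallothionein genes gave mixed counts. Of 8 MTF-1 target genes, 2 were higher between LLC and Control, where 29.7% of all tested genes were, Csrp1 (0.61, limma adjusted p = 0.013) and Ndrg1 (0.36, adjusted p = 0.028), and Sepw1, which encodes selenoprotein W, was lower (-0.13, adjusted p = 0.035), while Mt1, Mt2 and Slc30a1 of this list were not called. Csrp1, a LIM domain protein, had 47.05 ± 5.49 TPM in Control and 74.5 ± 24.9 TPM in LLC. Csrp1 and Sepw1 passed under every scaling tried and Ndrg1 did not. Fits that left out 1 mouse called 0 to 3 genes of the list as higher and 0 to 1 as lower between LLC and Control. The list was not split by whether MTF-1 raises or lowers a gene, so a count of higher genes gives no direction of MTF-1 action. With the groups pooled by tumor, 2 to 4 of the 8 were higher in fits that left out 1 mouse. With all mice 4 of 8 were higher, against 38.8% of all tested genes. These were Csrp1, Ndrg1, which also passed after rescaling without mitochondrial genes but not under the 2 other scalings, and Mt2 and the importer gene Slc39a10 (0.21, adjusted p = 0.025), both with the deposited scaling only. Of 8 glucocorticoid receptor targets, 0 were called between LLC and Control with values as deposited, while Klf9, a transcription factor, passed as lower under the 3 other scalings (-0.36 as deposited, -0.54 after median-ratio scaling). Glul, glutamine synthetase and the most abundant of the list, averaged 246 ± 48.1 TPM in Control and 352 ± 117 TPM in LLC (0.48, adjusted p = 0.099), and Tsc22d3, which encodes the glucocorticoid-induced leucine zipper, 53.8 ± 16.01 and 59.2 ± 14.6 TPM. Of the same list, Klf9 was the one gene called in the pooled tumor comparison, as lower (-0.30, adjusted p = 0.035). In fits that left out 1 mouse, 0 to 1 of the list were lower there, so the call was lost in some.

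Of 10 genes of the interleukin-6 and STAT3 response, 4 were higher between LLC and Control, where 29.7% of all tested genes were, with a median log2 difference of 0.48 against 0.16 over all tested genes. These were Bcl3, a nuclear cofactor of NF-kappaB, at 3.38 ± 1.15 TPM in Control and 8.25 ± 0.74 TPM in LLC (1.12, limma adjusted p = 0.014), Osmr, the oncostatin M receptor (0.52, adjusted p = 0.011), Stat3 (0.38, adjusted p = 0.012) and Il6st, the shared receptor subunit gp130 (0.30, adjusted p = 0.031). Bcl3 and Stat3 passed under each other scaling, Osmr under 2 of 3 and Il6st under none. Cebpb, a transcription factor and the most abundant of the list, had 47.7 ± 19.6 TPM in Control and 43.8 ± 4.78 TPM in LLC and was not called. With the groups pooled by tumor 6 of 10 were higher, against 38.8% of all tested genes, with Pim1 (0.79, adjusted p = 0.0073) and Socs3 (0.69, adjusted p = 0.028) in addition. Pim1 passed under each scaling, and Socs3 under none of the other scalings (adjusted p of 0.052 to 0.098). Socs3, a feedback inhibitor of the pathway, had 7.36 ± 3.63 TPM in Control, 7.67 ± 3.78 TPM in Control + rFibcd1, 11.8 ± 2.85 TPM in LLC and 12.1 ± 2.26 TPM in LLC + rFibcd1. Of 7 tested NRF2 targets Gsr, glutathione reductase, was the one called between LLC and Control (0.33, adjusted p = 0.012), a call lost after quantile normalization (0.12, adjusted p = 0.11), and of 11 iron-handling genes Ftl1, the ferritin light chain, was (0.80, adjusted p = 0.027). With the groups pooled, Hmox1, heme oxygenase 1 (0.39, adjusted p = 0.014), and Fth1, the ferritin heavy chain (0.20, adjusted p = 0.0030), were called as higher as well. Hmox1 did not pass after quantile normalization, and Fth1 passed neither after median-ratio scaling (0.05, adjusted p = 0.45) nor after quantile normalization, where it turned to -0.09. The most abundant NRF2 targets Txnrd1, Nqo1 and Srxn1, and the transferrin gene Trf, were not called in either comparison with values as deposited. Txnrd1 passed as lower in the pooled comparison after median-ratio scaling (-0.23, adjusted p = 0.027) and quantile normalization (-0.20, adjusted p = 0.025). Between LLC + rFibcd1 and Control, where 3.08% of all tested genes were called, Osmr, Gsr and Fth1 were the genes of these lists called, all as higher. Osmr and Gsr passed under each scaling, and Fth1 (0.23, adjusted p = 0.042) under no other scaling, with a turn to -0.11 after quantile normalization. Without LLC replicate 3, 0 genes of each of these lists were called between LLC and Control. Between LLC + rFibcd1 and LLC 0 genes of the 8 pathway lists passed, where 0.113% of all tested genes did, so this count says nothing about the lists.

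Between LLC and Control, where 29.7% of all tested genes were higher, the tested markers of neutrophils (5 of 5), B cells (5 of 5) and T cells (4 of 4) were called as higher. Of 6 macrophage markers 2, Cd68 and Csf1r, were called as higher, and 4 were not called. The summed TPM of 6 neutrophil markers ran from 1.84 to 14.3 in Control, 2.87 to 78.4 in Control + rFibcd1, 44.98 to 106 in LLC and 55.0 to 206 in LLC + rFibcd1, and the neutrophil gene Ly6g was below the filter. For 5 B cell markers the ranges were 2.40 to 94.9, 3.39 to 136, 220 to 279 and 18.0 to 274. For 4 adipocyte markers, of which 0 were called, they were 55.6 to 361, 70.7 to 434, 188 to 954 and 70.7 to 384. Over the 17 mice, Mt2 and the neutrophil sum had r = 0.71 on the log2 scale, and Mt1 and that sum 0.595, as a description of shared libraries. Mt2 had r = 0.613 with the adipocyte sum and 0.602 with the sum of 3 red cell markers, which ran from 2270 to 11800 TPM in Control, 2320 to 12100 in Control + rFibcd1, 8280 to 26900 in LLC and 8570 to 12200 in LLC + rFibcd1. In the pooled tumor comparison, 3 of 3 red cell markers were called as higher, against 38.8% of all tested genes. Between LLC and Control 1 of the 3, Alas2, was called. The tumor-free mouse with the highest neutrophil sum, 78.4, was the one with the highest Mt1 of all 17. The highest neutrophil sum of all, 206, was in LLC + rFibcd1 replicate 2, with 150 TPM of Mt1 and 50.9 TPM of Mt2. LLC replicate 2, with the highest sum of its group, 106, had the lowest Mt1 and Mt2 of that group, 146 and 36.8 TPM. The r values with marker sums were not taken after subtraction of group means. The part of these cells in the Mt2 difference was not tested.

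Leaving aside the members themselves, the genes whose levels followed the metallothioneins most closely over the 17 mice differed between them. For Mt2 they were Gabarapl1, an autophagy protein of the ATG8 family (r = 0.91), the uncharacterised D230025D16Rik (r = 0.86) and the ubiquitin gene Ubb (r = 0.86). Gabarapl1 averaged 77.9 ± 5.82 TPM in Control (SD, n = 5), 73.3 ± 10.6 TPM in Control + rFibcd1 (n = 5), 94.4 ± 6.91 TPM in LLC (n = 3) and 90.8 ± 8.26 TPM in LLC + rFibcd1 (n = 4), and r after subtraction of group means was 0.86. For Mt1 they were Kti12 (r = 0.87), the lysosomal cholesterol transporter Npc1 (0.85) and the kinase Map3k6 (0.83). Mtf1 was most like Jmjd6, Rarb and Pde7a (0.81, 0.81 and 0.80), Slc39a14 like Epb41, Micall1 and Adamtsl2 (0.82, 0.80 and 0.78) and Slc30a1 like Fmr1, Xrn1 and Mynn (0.93, 0.92 and 0.91). Among the members, the second closest pair after Mt1 and Mt2 was Mtf1 and Slc39a14 with r = 0.54, and Slc30a1 had r = -0.06 with Mt1 and 0.28 with Mt2. The genes named as most alike had the highest r among the 13305 tested genes without the members. All of these values are given as a description only.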

How the data were processed

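Diaphragm mRNA of 17 mice (biological replicates per the labels, without stated litters or batches) was sequenced. The authors trimmed and filtered paired reads, mapped them to mm10 in CLC Genomics Workbench and deposited TPM per gene, in 1 table of 47643 gene symbols whose values sum to 1000000 in each sample. The annotation release and the use of strand in counting are not given in the sources used here. All columns matched a sample (0 without one). TPM fix the sum, so an increase of some transcripts lowers the others. Depth was estimated from the steps of low values and GENCODE vM21 exon lengths, with 83.6 to 87.1% of low values within 0.02 of a whole read (4% for random values).

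The members and gene lists were chosen with earlier results of these data known. Genes reaching 1 TPM in 3 or more mice (13305) were tested on log2(TPM + 1) in limma 3.58.1 (R 4.3.3) with all 4 groups in 1 model, 13 residual degrees of freedom, a mean-expression trend, two-sided tests and Benjamini-Hochberg adjustment over all 13305 genes, at a threshold of 0.05. The study itself used Dunn's test on log TPM, which was run as an alternative. The pooled tumor comparison set 7 tumor-bearing against 10 tumor-free mice. The tests were checked on simulated data. Correlations used 100000 permutations or exact enumeration in scipy 1.17.1 (Python 3.11.15). Besides the 6 members, genes were named if called within a list (at most the 4 with the largest change in each comparison) or among its 3 most abundant in Control, and the 3 genes most correlated with each member were named. Slc39a2, Slc39a9, Slc39a13 and the cell type markers were named after their values were seen. Sequences came from RefSeq. Alternatives were a pseudocount of 0.1 TPM, no filter, a filter of 5 TPM, 3 other scalings, fits of the compared groups alone, Dunn's test, a replicate block, leaving out each mouse, and, chosen after seeing the data, leaving out 3 libraries with over 100 TPM of Alb.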

Additional observations from a re-analysis of the deposited data

Results flagged for a closer look

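No member had a sample far from the others of its group, and no member passed the test of whether the response to rFibcd1 differed between mice with and without a tumor. A sample far from the rest was looked for in 51 sets of values, those of the 6 members and of the 11 marker sums in each group of 4 or 5 mice, and 5 marker sums had one, where chance gives about 1 in 20. In Control + rFibcd1 replicate 1 the summed TPM was 135.5 for the B cell markers, 434.1 for the adipocyte markers and 1541 for the macrophage markers, with gaps to the next mouse of 0.826, 0.928 and 0.836 of the range of the group. This mouse had the highest Slc39a8 of the tumor-free mice, 3.87 TPM. The summed TPM of the 8 hepatocyte markers was 4499 in Control + rFibcd1 replicate 2, whose gap to the next mouse took 0.903 of the range of its group. The summed TPM of the 4 mesothelial markers was 128.7 in Control replicate 2, with a gap of 0.724 of the range. Slc39a8 in that mouse was 2.27 TPM, inside the Control range.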

How the results depend on the processing

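The number of members called between LLC and Control rose from 0 to 2 after quantile normalization (Mtf1 and Slc30a1, both lower, as were 23.9% of all tested genes under that scaling). In the pooled tumor comparison it fell from 1 to 0 after median-ratio scaling, after rescaling without mitochondrial genes, with a replicate block and without the libraries above 100 TPM of Alb, and ran from 0 to 2 when each mouse was left out. The 2 calls were Mt2 and Slc39a8, without Control + rFibcd1 replicate 1. After quantile normalization the count was again 1, but the gene was Slc30a1, as lower. Mt2 kept its call with a pseudocount of 0.1 TPM (adjusted p = 0.029), no filter (0.046) and a filter of 5 TPM (0.026), and the cause of the losses was not tested. Dunn's test called 0 of all tested genes in each pairwise comparison, with 4993 at an unadjusted p under 0.05 between LLC and Control. In the other 4 comparisons 0 members passed under each alternative run. The filter of 5 TPM removed Slc39a14 and Slc39a8.

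Deviations of same-numbered mice had correlations of -0.459 to 0.485, with a median of -0.061 over 22 pairs. Mice with other numbers had -0.649 to 0.747, with a median of -0.026 over 85 pairs. The labels do not say whether a number stands for a shared litter or batch, and this was not tested. With the replicate block 5 of all tested genes were called between LLC and Control in place of 4759, with 0 in every pathway list, while 3782 were called in the pooled tumor comparison in place of 5963, with 5 of 12 ZIP genes and 6 of 10 interleukin-6 and STAT3 genes as higher. The Mt2 difference there was 0.58 (adjusted p = 0.064), and between LLC + rFibcd1 and LLC the differences of Mt1 and Mt2 turned to 0.010 and 0.016.

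Small log2 differences of members changed sign, none of them called as deposited. Median-ratio scaling gave -0.0044 for Slc39a14 and -0.12 for Slc30a1 (LLC against Control), 0.030 for Mt1 and 0.0099 for Slc39a14 (LLC + rFibcd1 against LLC), -0.0022 for Mtf1 (LLC + rFibcd1 against Control), 0.0035 for Slc39a8 (Control + rFibcd1 against Control), and -0.081, -0.061 and -0.090 for Mtf1, Slc39a14 and Slc30a1 (pooled tumor comparison). Quantile normalization gave -0.18 and -0.25 for Slc39a14 and Slc30a1 (LLC against Control), 0.14, 0.13 and 0.055 for Slc39a14, Slc39a8 and Slc30a1 (LLC + rFibcd1 against LLC), -0.038 and -0.035 for Mtf1 and Slc39a14 (LLC + rFibcd1 against Control), 0.0086 and 0.041 for Mtf1 and Slc39a8 (Control + rFibcd1 against Control), and -0.18, -0.17 and -0.17 for Mtf1, Slc39a14 and Slc30a1 (pooled). Rescaling without mitochondrial genes gave -0.054 for Slc30a1 (LLC against Control), and -0.029, -0.0090 and -0.036 for Mtf1, Slc39a14 and Slc30a1 (pooled). Without the libraries above 100 TPM of Alb Slc39a14 was at -0.044 in LLC + rFibcd1 and at -0.044 in Control + rFibcd1, each against Control.

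When each mouse was left out, signs changed for Mtf1 between LLC and Control (-0.064 to 0.0051). Between LLC + rFibcd1 and LLC they changed for Mt1 (-0.23 to 0.012), Mt2 (-0.42 to 0.10), Slc39a14 (-0.17 to 0.034) and Slc39a8 (-0.29 to 0.048). They also changed for Mtf1 between LLC + rFibcd1 and Control (-0.0062 to 0.091), and for Mt1 (-0.27 to 0.012) and Slc39a8 (-0.21 to 0.13) between Control + rFibcd1 and Control. The correlation of Mt1 and Mt2 was 0.78 after median-ratio scaling and 0.82 to 0.90 with a mouse left out. With 3 to 5 mice in a group, the intervals for Mt2 and Slc39a8 between LLC and Control hold changes of either sign.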
